A study of Mus musculus with 6 samples.

Results

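The genes described here are 39 markers and regulators of the neural crest, of its glia and of the neurons that innervate the embryonic pancreas, out of 37224 genes in the count table. They were taken from a list of symbols and fall into 3 classes, which are 11 genes of the crest and of the signals that guide it, 4 genes of glia and 24 genes of neurons. RNA was sequenced from pancreata of wild type embryos of the C57/Bl6J strain at 13.5 and 15.5 days post coitum (dpc), with 3 samples per stage. Each sample was a pool of up to 3 embryos of the same stage and genotype, the wt genotype and the strain were shared by both stages, and the labels name no treatment. The whole pancreas was used, so epithelium, mesenchyme, vessels, blood and nerves all contributed RNA. Total counts per sample were 10546028 to 16389237, and the members with a row held 0.0882% to 0.0919% of all counts at 13.5 dpc and 0.0529% to 0.0658% at 15.5 dpc. These are raw counts of reads per gene, compared as normalised counts, that is, counts scaled to a common effective library size with TMM factors. In normalised counts the members summed to 10380.9 to 10757.5 at 13.5 dpc and 7905 to 8405.8 at 15.5 dpc.

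Neural crest cells arise at the border of the neural tube, migrate into the gut and its derivatives and give rise there to enteric and pancreatic neurons and to glia. In the pancreas they settle close to the epithelium and the islets, form ganglia and send axons into the organ, and their glial progeny, Schwann cells, ensheathe nerves and islets. SOX10 and FOXD3 keep crest cells and glia in their state. Endothelin 3 and its receptor EDNRB, and the GDNF family ligands with their GFRA co-receptors and the receptor tyrosine kinase RET, guide migration and support survival. PHOX2A and HAND2 specify autonomic neurons, which then make neurofilaments, growth cone proteins, transmitter enzymes and neuropeptides. Several of these genes are also used outside nerves. Immature endocrine cells share neuronal cytoskeleton and vesicle genes, and mesenchyme makes HAND2 and some of the ligands, so a level in whole pancreas RNA belongs to no single cell type.

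The sequences upstream of the transcription start of 5 members called with all 6 samples are given first, since members of the list moved in opposite directions. The calls of *Prph*, *Ednrb* and *Phox2a* were lost when some samples were dropped, as described below. *S100b* and *Prph* rose, whereas *Edn3*, its receptor gene *Ednrb* and *Phox2a* fell. Each is the 150 bases before the start annotated by RefSeq on GRCm38.p6 (mm10 coordinates), 5′ to 3′ on the strand of the gene, and holds no annotated exon. Capitals mark matches, on either strand, to 7 short motifs, namely the TATA box TATAAA, the box named CCAAT, the GC box GGGCGG, the E-box spelled CAGCTG, the core of SOX sites ACAAT, the cyclic AMP response element TGACGTCA and the homeodomain core TAATTA. The start used for *Ednrb* lies 472 bases inside the gene as counted, and that for *S100b* 17 bases outside it.
S100b (chr10:76253686-76253835, plus strand): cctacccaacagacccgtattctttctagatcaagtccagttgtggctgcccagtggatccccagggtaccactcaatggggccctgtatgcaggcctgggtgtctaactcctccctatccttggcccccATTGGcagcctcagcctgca
Prph (chr15:99055024-99055173, plus strand): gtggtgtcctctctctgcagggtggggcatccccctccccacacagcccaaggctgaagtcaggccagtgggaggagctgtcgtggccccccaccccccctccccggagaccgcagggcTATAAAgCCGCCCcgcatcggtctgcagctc
Edn3 (chr2:174760469-174760618, plus strand): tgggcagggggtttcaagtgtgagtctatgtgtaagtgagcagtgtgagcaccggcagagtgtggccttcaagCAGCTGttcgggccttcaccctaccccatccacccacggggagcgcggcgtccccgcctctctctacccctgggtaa
Ednrb (chr14:103843702-103843851, minus strand): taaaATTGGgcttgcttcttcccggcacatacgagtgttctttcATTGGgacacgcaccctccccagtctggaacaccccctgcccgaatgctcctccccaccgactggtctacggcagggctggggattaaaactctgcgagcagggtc
Phox2a (chr7:101818163-101818312, plus strand): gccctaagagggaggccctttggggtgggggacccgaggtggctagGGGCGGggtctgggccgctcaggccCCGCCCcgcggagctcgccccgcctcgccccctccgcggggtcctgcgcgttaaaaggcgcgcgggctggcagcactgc
*Prph*, the gene of the intermediate filament peripherin, has a TATA box that begins 31 bases before its start and a GC box at 24 bases, *Phox2a* has GC boxes at 104 and 79 bases, and *Edn3* has the E-box at 77 bases. *S100b* has a CCAAT box at 20 bases and *Ednrb* has CCAAT boxes at 146 and 106 bases. Over the list, 28 members had a window of this length, taken at the annotated start nearest to the gene's start as counted. These windows and the 32851 windows of all genes were not filtered for exons, and the latter may hold several starts of a gene. Of the 28, 7 (25.0%) held CAGCTG, against 8.39% of the 32851 windows, and 5 (17.9%) held TATAAA, against 7.57%. CCAAT was found in 28.6% of the member windows and in 24.5% of all windows, GGGCGG in 35.7% and 28.6%, and ACAAT in 17.9% and 17.4%. TAATTA was found in 1 member window (3.57%) and in 2.73% of all windows. TGACGTCA was found in 2 of the 28 (7.14%), against 1.36% of all windows, in the genes of a neuropeptide precursor and of the enzyme that starts catecholamine synthesis, which are shown as 30 bases each with the site in capitals.
Cartpt (chr13:99900777-99900806, minus strand): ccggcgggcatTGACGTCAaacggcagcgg
Th (chr7:142900022-142900051, minus strand): cagaggggcttTGACGTCAgcctggccttt
The site begins 112 bases before the start of *Cartpt* and 45 bases before that of *Th*. The start used for *Th* lies 31133 bases inside the gene as counted, and the 150 bases before the start of either gene overlap 1 annotated exon. A match of these letters is a description and not a site of binding, and the members that share TGACGTCA did not change alike, since *Cartpt* fell (log2 fold change -1.42, standard error 0.16, adjusted p = 0.00155) and *Th* was at a log2 fold change of 0.33 (adjusted p = 0.354) in edgeR's test.

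Of the 39 genes, 38 have a row in the table and 34 passed the filter on low counts. *Slc18a3*, the gene of the vesicular acetylcholine transporter, had no row under its identifier and was not analysed here. The genes below the filter were *Tfap2b*, *Cdh19*, *Dbh* and *Chat*. Of the 34 tested, 13 were lower and 4 higher at 15.5 dpc by edgeR's quasi-likelihood test at a Benjamini-Hochberg adjusted p of 0.05, and 17 did not pass it. Among all 15578 genes tested 10.7% were lower and 11.6% higher, 22.3% in all. The neuron class held most of the genes that fell, with 10 lower and 1 higher of 21 tested, at a median log2 fold change of -0.33, or -0.59 to -0.41 with a sample dropped and -0.67 over genes with at least 10 counts in every sample. In the crest class 3 of 10 were lower and 2 higher, with a median of -0.18, and in the glia class 1 of 3 was higher and 0 lower, with a median of -0.021, against a median of -0.01 over all genes. In the glia class 0 genes were also lower at an unadjusted p of 0.05 in edgeR and by DESeq2, whereas with the gene length trend removed 1, *Fabp7*, was called lower. All 15.5 dpc samples lay below all 13.5 dpc samples for 17 of the 34 tested members, as they did for 23.6% of all genes tested, and above them for 4, against 22.8%. By the cut-offs of the study (adjusted p at or below 0.1, over 100 normalised counts in either stage, fold below 0.6 or above 1.6) 7 members were lower and 2 higher, against 3.58% and 6.3% of all genes, or 9.88% in both directions.

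**Figure D1:**
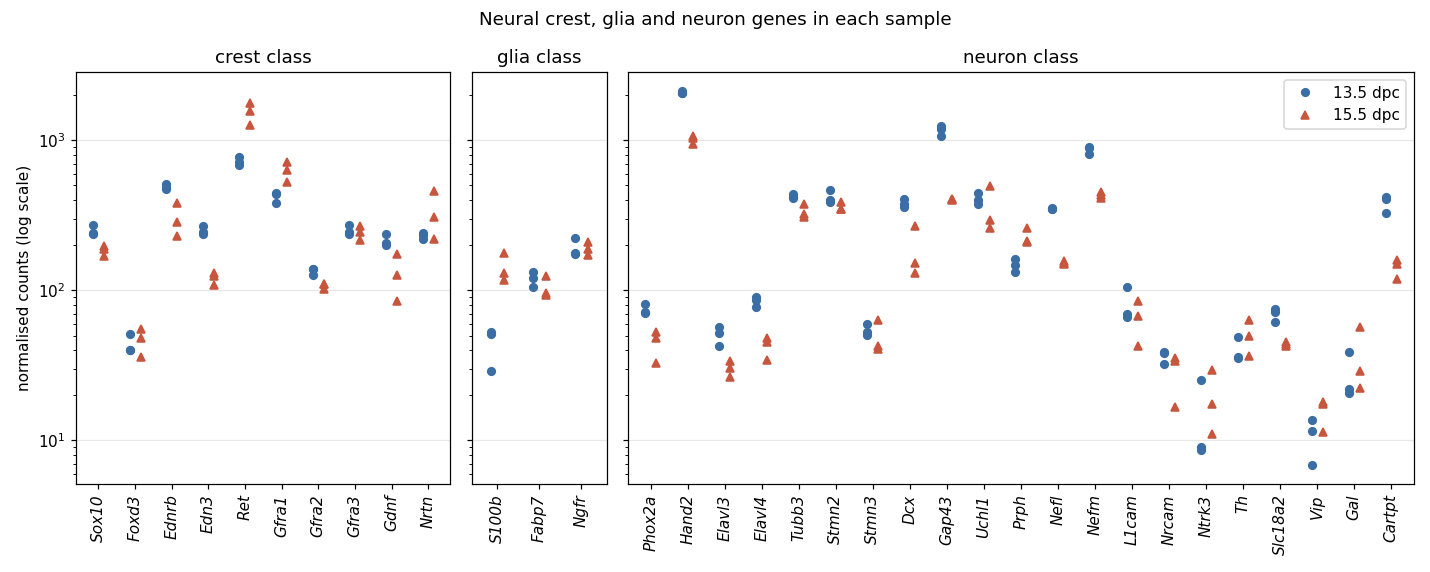
Normalised counts (log scale) of the 34 tested members in each sample, by class, with circles for the 3 samples of 13.5 dpc and triangles for the 3 of 15.5 dpc. *Gap43* (1062 to 1253 against 401 to 408), *Hand2*, *Nefl* and *Nefm* lie well apart between the stages, and *Ret* and *S100b* lie apart in the other direction.

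Of the 17 calls, 9 held with the same direction in all 15 alternative fits. They were those of *Edn3*, *Hand2*, *Elavl4*, *Gap43*, *Nefl*, *Nefm* and *Cartpt*, which fell, and of *Ret* and *S100b*, which rose. The study's cut-offs, applied to the reported fit, are not counted among the 15, and they left *Elavl4* uncalled. The other 8, of *Sox10*, *Ednrb*, *Gfra1*, *Phox2a*, *Elavl3*, *Dcx*, *Prph* and *Slc18a2*, were each lost in the same 4 fits (some in others as well), those without replicate 1, 2 or 3 of 13.5 dpc and without replicate 3 of 15.5 dpc. In each of these 4 fits 6 neuron genes were lower and 0 higher, 1 crest gene was lower and 1 higher, and 1235 to 1438 of all genes were called. In bulk RNA, fewer cells of a type and less RNA per cell cannot be told apart, and the same holds for more cells and more RNA.

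**Figure D2:**
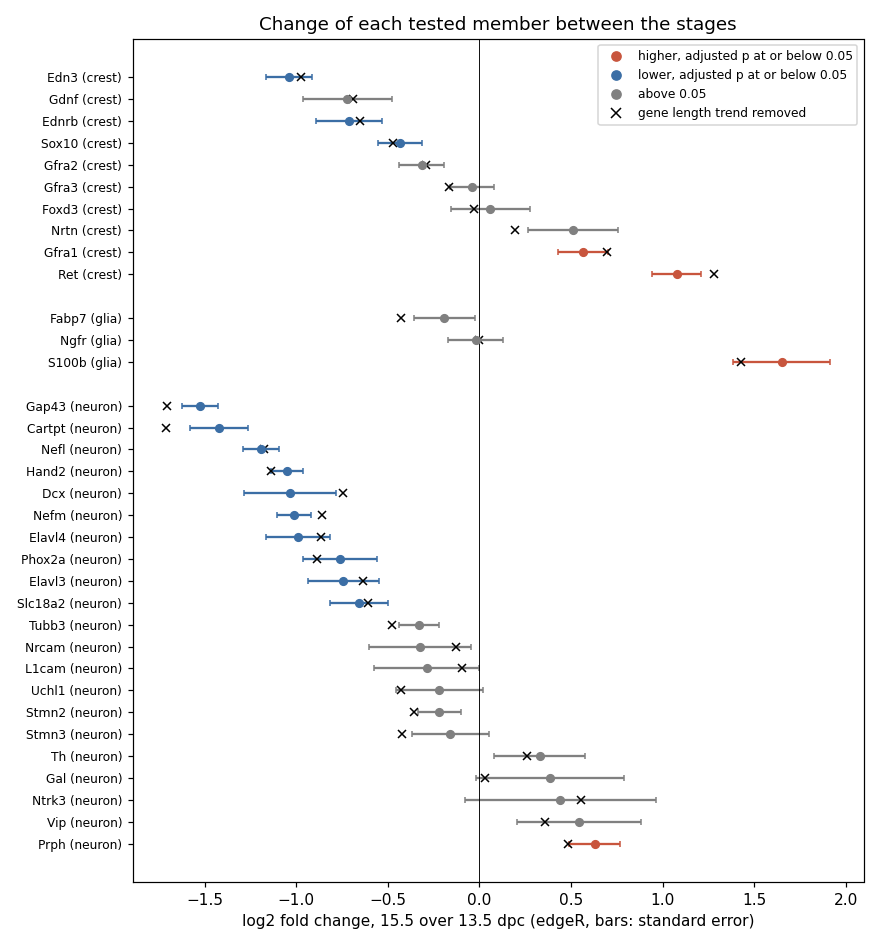
Log2 fold change (15.5 over 13.5 dpc) of each tested member with its standard error from edgeR (circles and bars), coloured by call, and the value with the gene length trend of each library removed (crosses). Values run from -1.53 for *Gap43* to 1.65 for *S100b*.

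Among the regulators of crest identity, *Sox10* fell and *Foxd3* did not pass the test. *Sox10*, the HMG box factor of crest cells and glia, lies on chromosome 15 of mm10 from 79154913 to 79164490. It had 239.6, 239 and 272 normalised counts at 13.5 dpc and 189.6, 198 and 169 at 15.5 dpc. All samples of 15.5 dpc lay below all samples of 13.5 dpc, although the change was small (log2 fold change -0.43, standard error 0.12, adjusted p = 0.0406, edgeR). In those 4 fits its adjusted p was 0.112 to 0.158, and its log2 fold change was -0.47 to -0.37 over the 6 fits with a sample dropped. *Foxd3*, a forkhead factor of premigratory crest and early glia, had 40.1, 40.3 and 51 normalised counts at 13.5 dpc and 55.4, 35.8 and 47.9 at 15.5 dpc. These ranges overlapped, at a log2 fold change of 0.06 (adjusted p = 0.857), and its sign changed without replicate 1 of 15.5 dpc (-0.090). *Tfap2b*, a factor of crest and sympathetic neurons, was close to absent with 2, 6 and 0 raw counts at 13.5 dpc against 2, 2 and 0 at 15.5 dpc. Samples of both stages include 0 for this gene and the floor used here was 3 counts, so no fold is given.

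Both genes of the endothelin 3 axis fell. *Edn3*, the ligand gene, on chromosome 2 of mm10 from 174760619 to 174784042, had 246, 268 and 236 normalised counts at 13.5 dpc and 108, 125 and 131 at 15.5 dpc. Its samples were separated widely and the log2 fold change was -1.04 (standard error 0.13, adjusted p = 0.00211, edgeR), and -1.10 to -0.97 over the 6 fits with a sample dropped. *Ednrb*, its G protein coupled receptor, on chromosome 14 of mm10 from 103814625 to 103844173, had 487, 514 and 475 normalised counts at 13.5 dpc and 231, 382 and 283 at 15.5 dpc. The 15.5 dpc samples were lower throughout but spread more than those of 13.5 dpc, with replicate 1 the lowest (log2 fold change -0.71, standard error 0.18, adjusted p = 0.0288, edgeR). Its adjusted p was 0.0917 to 0.112 in those 4 fits. Per exon length, the receptor was at 9.64 ± 0.399 RPKM at 13.5 dpc and 5.86 ± 1.51 at 15.5 dpc (SD, n = 3) and the ligand at 4.81 ± 0.316 RPKM at 13.5 dpc and 2.33 ± 0.229 at 15.5 dpc. Among related genes, the receptor gene *Ednra* was at a log2 fold change of -0.54 (adjusted p = 0.0589), the processing enzyme gene *Ece1* at 0.0046 (adjusted p = 0.986) and the ligand gene *Edn1* at -0.035 (adjusted p = 0.919).

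Of the GDNF receptor complex *Ret* and *Gfra1* rose, and the ligand gene *Gdnf* did not pass the test. *Ret*, the receptor tyrosine kinase shared by these ligands, lies on chromosome 6 of mm10 from 118151748 to 118197744. It had 685, 718 and 773 normalised counts at 13.5 dpc and 1265, 1766 and 1556 at 15.5 dpc. The lowest 15.5 dpc sample was above the highest 13.5 dpc sample (log2 fold change 1.08, standard error 0.14, adjusted p = 0.00242, edgeR), and the log2 fold change was 0.97 to 1.20 over the 6 fits with a sample dropped. *Gfra1*, the co-receptor that binds GDNF, had 383, 448 and 438 normalised counts at 13.5 dpc and 526, 717 and 636 at 15.5 dpc. It rose too (log2 fold change 0.57, standard error 0.14, adjusted p = 0.0255, edgeR), without overlap between the stages. That call was lost in the 4 fits named above (adjusted p = 0.0811 to 0.115) and with library size only, at 0.37 (adjusted p = 0.154). *Gdnf* itself had 199.5, 237 and 206 normalised counts at 13.5 dpc and 84.4, 176 and 126 at 15.5 dpc. The stages did not overlap, but the 15.5 dpc samples spread over a wide range, and the log2 fold change of -0.72 (standard error 0.24) did not pass the test (adjusted p = 0.0706, edgeR). It passed without replicate 1 of 15.5 dpc, at -0.49 (adjusted p = 0.0495), and without replicate 2, at -1.01 (adjusted p = 0.00325). With DESeq2 it passed as well, at -0.72 (adjusted p = 0.0325).

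The other co-receptor genes and *Nrtn* did not pass the test. *Nrtn*, the gene of neurturin, which supports parasympathetic and enteric neurons and signals through GFRA2, had 239.6, 232 and 219.8 normalised counts at 13.5 dpc and 461, 221 and 307 at 15.5 dpc. Replicate 2 of 15.5 dpc lay within the 13.5 dpc range and replicate 1 far above it, at a log2 fold change of 0.51 (adjusted p = 0.168), or 0.75 (adjusted p = 0.00678) without replicate 2. It was 0.19 (adjusted p = 0.368) without replicate 1 of 15.5 dpc and 0.20 (adjusted p = 0.257) with the gene length trend removed. *Gfra2* had 138, 138 and 126 normalised counts at 13.5 dpc and 102, 110.4 and 109.6 at 15.5 dpc. Its samples did not overlap, yet the log2 fold change of -0.32 (adjusted p = 0.0997) was above the threshold. *Gfra3*, the co-receptor for artemin, had a log2 fold change of -0.041 (adjusted p = 0.825), with signs that changed without replicate 2 of 13.5 dpc (0.017) or replicate 3 of 15.5 dpc (0.035). On the RPKM scale *Nrtn* was the highest gene of the crest class, with 17.8 ± 0.776 RPKM at 13.5 dpc and 25.5 ± 9.4 at 15.5 dpc (SD, n = 3), and *Ret* went from 7.82 to 16.5. Of genes of this pathway outside the 39, *Artn* was at a log2 fold change of -0.18 (adjusted p = 0.444) and *Gfra4* at -0.29 (adjusted p = 0.293), while *Pspn* had 1 count in 1 sample of 13.5 dpc and 0 in the others.

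**Figure D3:**
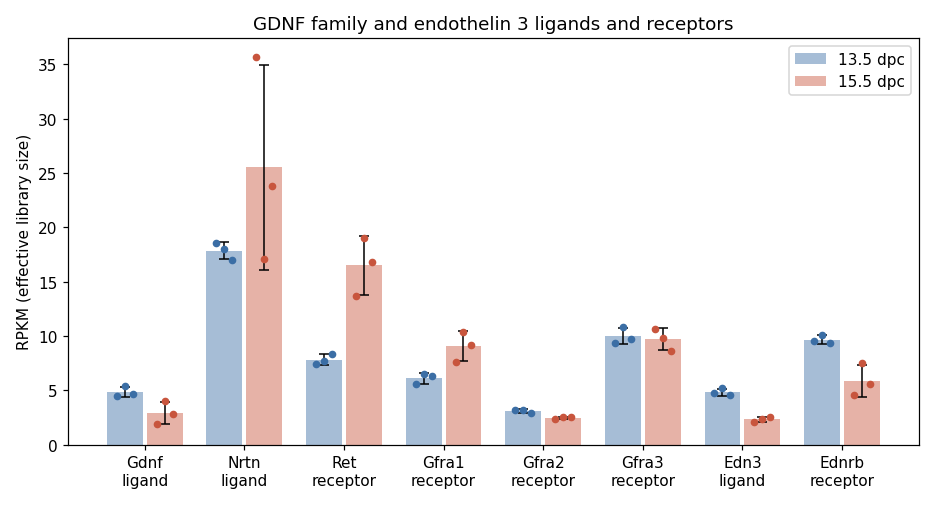
RPKM (reads per kilobase of exon, scaled to the effective library size) of GDNF family and endothelin 3 ligand and receptor genes, with bars for the mean, error bars for the SD (n = 3) and points for the samples. *Ret* and *Gfra1* are higher and *Edn3* and *Ednrb* lower at 15.5 dpc, and *Nrtn* varies most between the 15.5 dpc samples.

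In the glia class *S100b* rose and the remaining tested genes did not pass the test. *S100b*, which encodes a calcium-binding protein of Schwann cells and other glia, lies on chromosome 10 of mm10 from 76253853 to 76261159. It had 29.2, 51.4 and 53.2 normalised counts at 13.5 dpc and 179, 117 and 131 at 15.5 dpc. The lowest 15.5 dpc sample was more than 2 times the highest 13.5 dpc sample, and the log2 fold change, 1.65, was the highest of all tested members (standard error 0.27, adjusted p = 0.00588, edgeR). It was 1.43 to 1.80 over the 6 fits with a sample dropped. *Fabp7*, a fatty acid binding protein of immature glia, had 132, 121 and 105 normalised counts at 13.5 dpc and 125, 96.1 and 93.2 at 15.5 dpc. *Ngfr*, the low-affinity neurotrophin receptor of crest cells and Schwann cells, had 175, 177 and 225 normalised counts at 13.5 dpc and 172, 209 and 188 at 15.5 dpc. Both sets overlapped between the stages, at log2 fold changes of -0.19 (adjusted p = 0.419) and -0.021 (adjusted p = 0.928), and the sign of *Ngfr* changed without replicate 3 of 13.5 dpc (0.11) or replicate 1 of 15.5 dpc (0.043). With the gene length trend removed, *Fabp7* was called lower, at -0.43 (adjusted p = 0.0362). *Cdh19*, a cadherin of Schwann cell precursors, had 11, 9 and 18 raw counts at 13.5 dpc against 4, 8 and 3 at 15.5 dpc, too few for the test.

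In a list of 22 other crest and glia genes, 17 were tested. Of these, 1 (5.88%) was lower and 0 were higher, against 10.7% and 11.6% of all genes tested. The median log2 fold change of the list was -0.18. At an unadjusted p of 0.05 edgeR gave 4 lower and 2 higher, and DESeq2 called 2 lower and 0 higher. The gene that fell was *Sox8*, a relative of *Sox10* (log2 fold change -0.91, standard error 0.25, adjusted p = 0.0398, edgeR). *Erbb3*, the neuregulin receptor of Schwann cell precursors, which epithelia also make, was at 1092 ± 149 to 1020.4 ± 337 normalised counts (SD, n = 3), with a log2 fold change of -0.10 (adjusted p = 0.782). *Pax3*, a factor of early crest, had 0 counts in all 6 samples, and *Gfap* had 3 to 6 counts in each. With all 6 samples, none of the other glial genes tested here was called higher by edgeR.

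The transcription factor genes *Hand2* and *Phox2a* fell. *Hand2*, a basic helix-loop-helix factor of sympathetic and enteric neurons that is also made by mesenchyme, had the highest mean RPKM of the tested members at both stages. It had 2143, 2078 and 2074 normalised counts at 13.5 dpc and 942, 1034 and 1063 at 15.5 dpc, a tight set at each stage with no overlap (log2 fold change -1.05, standard error 0.088, adjusted p = 0.000706, edgeR). Per exon length it went from 74.3 ± 1.37 to 35.9 ± 2.22 RPKM (SD, n = 3). *Phox2a*, a homeodomain factor of noradrenergic and enteric neurons, on chromosome 7 of mm10 from 101818313 to 101823166, had 72, 80.6 and 71.1 normalised counts at 13.5 dpc and 52.6, 32.7 and 47.9 at 15.5 dpc. It was lower in all 15.5 dpc samples (log2 fold change -0.76, standard error 0.20, adjusted p = 0.0349, edgeR), but its adjusted p was 0.0939 to 0.129 in those 4 fits. Of its 2049 exon bases, 534 overlap exons of *Inppl1* on the opposite strand.

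The RNA-binding proteins ELAVL3 and ELAVL4 appear as neurons leave the cell cycle. *Elavl4* had 86.6, 90.9 and 77.6 normalised counts at 13.5 dpc and 34.6, 45 and 47.9 at 15.5 dpc. *Elavl3* had 42.8, 52.3 and 56.7 normalised counts at 13.5 dpc and 26.3, 33.7 and 30.2 at 15.5 dpc. Both genes were lower in every 15.5 dpc sample, at log2 fold changes of -0.99 (adjusted p = 0.00818) and -0.74 (adjusted p = 0.0338) in edgeR's test. *Elavl4* kept its call with any sample dropped, whereas *Elavl3* lost it in 5 of the 6 fits (adjusted p = 0.0527 to 0.131) and kept it only without replicate 2 of 15.5 dpc. *Elavl2*, another gene of the family outside the 39, was at -0.75 (adjusted p = 0.0326), and *Rbfox3*, which encodes the neuronal nuclear protein NeuN, at -0.65 (adjusted p = 0.0267).

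Of the genes of axons and growth cones *Gap43*, *Nefl* and *Nefm* fell. *Gap43*, whose product is concentrated in growth cones and Schwann cell precursors, lies on chromosome 16 of mm10 from 42248442 to 42340651. It had 1253, 1184 and 1062 normalised counts at 13.5 dpc and 401, 408 and 404 at 15.5 dpc. The 15.5 dpc samples differed from each other by less than 2% and lay far below 13.5 dpc (log2 fold change -1.53, standard error 0.10, adjusted p = 0.000355, edgeR), so that its level fell from 60.6 to 21 RPKM. The neurofilament light chain gene *Nefl* had 351, 348 and 351 normalised counts at 13.5 dpc and 152, 157 and 149.8 at 15.5 dpc. The medium chain gene *Nefm* had 897, 889 and 816 normalised counts at 13.5 dpc and 409.6, 429 and 449.5 at 15.5 dpc. Both neurofilament genes fell to less than 1 in 2 of their level, with log2 fold changes of -1.19 (adjusted p = 0.00067) and -1.01 (adjusted p = 0.000907) in edgeR's test. As counted, the span of *Nefl* lies inside that of *Nefm* on chromosome 14, from 68083863 to 68089095 on the plus strand for *Nefl* and from 68082590 to 68124846 on the minus strand for *Nefm*, and in the annotation used for counting 1108 exon bases overlap on opposite strands. The libraries were strand-specific and the table behaves as counted by strand, since 0 of 293 genes lying wholly in exons of a gene of the same strand had 10 counts or more, against 28 of 144 on the opposite strand.

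*Prph*, the gene of peripherin, the intermediate filament of peripheral neurons, went the other way. It had 148, 161 and 132 normalised counts at 13.5 dpc and 260.2, 209.6 and 213 at 15.5 dpc. The stages did not overlap (log2 fold change 0.63, standard error 0.14, adjusted p = 0.0198, edgeR), although the call was lost in the 4 fits named above (adjusted p = 0.0581 to 0.0921) and with library size only, at 0.41 (adjusted p = 0.051). *Prph* lies on chromosome 15 of mm10 from 99055174 to 99058978, and shares no stretch of 50 bases with transcripts of other genes. The heavy neurofilament gene *Nefh* was at a log2 fold change of 0.20 (adjusted p = 0.477) and internexin (*Ina*) at -0.32 (adjusted p = 0.218).

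Among microtubule genes of young neurons *Dcx* fell, and the tubulin and stathmin genes did not pass the test. *Dcx*, the gene of doublecortin on the X chromosome, had 376, 358 and 407 normalised counts at 13.5 dpc and 131, 268 and 152 at 15.5 dpc. It fell (log2 fold change -1.03, standard error 0.25, adjusted p = 0.0254, edgeR) with a wide spread at 15.5 dpc, where replicate 2 was more than 2 times replicate 1, and its adjusted p was 0.0765 to 0.104 in those 4 fits. *Tubb3*, the neuronal beta tubulin, had 419, 412 and 435 normalised counts at 13.5 dpc and 376, 309 and 324 at 15.5 dpc. All 15.5 dpc samples lay below 13.5 dpc, yet the log2 fold change was -0.33 (adjusted p = 0.0685) and passed only without replicate 1 of 15.5 dpc, with library size only, with upper quartile factors and with the gene length trend removed, at -0.48 (adjusted p = 0.00345) in the latter. *Stmn2* and *Stmn3*, stathmins that regulate tubulin in growing axons, were at -0.22 (adjusted p = 0.2) and -0.16 (adjusted p = 0.601). *Uchl1*, the abundant ubiquitin hydrolase PGP9.5, had 444, 401 and 376 normalised counts at 13.5 dpc and 498, 261 and 295 at 15.5 dpc. Replicate 1 of 15.5 dpc was above all samples of 13.5 dpc and replicates 2 and 3 below them, and without replicate 1 *Uchl1* was lower, at -0.55 (adjusted p = 0.00714), against -0.22 (adjusted p = 0.513) with all samples.

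The axonal adhesion and receptor genes of the neuron class, *L1cam*, *Nrcam* and *Ntrk3*, were low in counts. *L1cam* had 66.5, 69.4 and 105 normalised counts at 13.5 dpc and 42.9, 84.9 and 68 at 15.5 dpc, and *Nrcam* had 38.3, 38.6 and 32.3 normalised counts at 13.5 dpc and 16.6, 33.7 and 35.3 at 15.5 dpc. *Ntrk3*, the receptor for neurotrophin 3, had 10, 10 and 35 raw counts at 13.5 dpc against 8, 29 and 14 at 15.5 dpc. The stages overlapped for all 3, with log2 fold changes of -0.29 (adjusted p = 0.474), -0.32 (adjusted p = 0.41) and 0.44 (adjusted p = 0.551), and the sign of *Ntrk3* changed without replicate 2 of 15.5 dpc (-0.022). Its ligand gene *Ntf3*, outside the 39, had 34, 25 and 32 raw counts at 13.5 dpc against 1, 8 and 5 at 15.5 dpc and fell (log2 fold change -2.14, standard error 0.42, adjusted p = 0.0131, edgeR).

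The members that make or load transmitters were low in counts. *Th*, the gene of tyrosine hydroxylase, had 35.5, 48.9 and 35.9 normalised counts at 13.5 dpc and 49.8, 63.4 and 36.5 at 15.5 dpc, which overlap (log2 fold change 0.33, adjusted p = 0.354). *Dbh*, which makes noradrenaline from dopamine, had 12, 9 and 16 raw counts at 13.5 dpc against 5, 5 and 4 at 15.5 dpc and was not tested. *Slc18a2*, the vesicular monoamine transporter of neurons and of endocrine cells, had 72, 75.4 and 61.8 normalised counts at 13.5 dpc and 42.9, 45 and 44.1 at 15.5 dpc. It fell without overlap (log2 fold change -0.66, standard error 0.16, adjusted p = 0.0243, edgeR), with an adjusted p of 0.0545 to 0.108 in those 4 fits. *Chat*, the enzyme gene for acetylcholine, had 0, 1 and 1 raw counts at 13.5 dpc against 0, 0 and 1 at 15.5 dpc, below the floor of 3 counts in each sample. *Pnmt*, the adrenaline enzyme gene that marks chromaffin cells, had 1 count in 1 sample and 0 in the others, and *Slc6a2*, the noradrenaline transporter gene, had 0 to 5 counts. *Ddc*, the decarboxylase that follows TH, which endocrine and gut cells also make, was at 1089 ± 34.5 to 2158 ± 191 normalised counts (SD, n = 3), higher than these members, and rose, at a log2 fold change of 0.99 (adjusted p = 0.00105).

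Of the neuropeptide genes *Cartpt* fell and the others were few in counts. *Cartpt*, the precursor gene of CART peptides, which are made by enteric neurons and by developing islet cells, lies on chromosome 13 of mm10 from 99898484 to 99900683. It had 407, 418 and 326 normalised counts at 13.5 dpc and 151, 119.6 and 159.9 at 15.5 dpc. The samples of 15.5 dpc were at less than 1 in 2 of the lowest at 13.5 dpc, and its level fell from 34.8 ± 4.56 to 13 ± 1.91 RPKM (SD, n = 3). *Vip*, of vasoactive intestinal peptide, had 15, 8 and 16 raw counts at 13.5 dpc against 13, 17 and 9 at 15.5 dpc, and *Gal*, of galanin, had 24, 45 and 29 raw counts at 13.5 dpc against 41, 22 and 23 at 15.5 dpc. Neither passed the test, at log2 fold changes of 0.54 (adjusted p = 0.267) and 0.38 (adjusted p = 0.503), and the sign of *Gal* changed without replicate 1 of 15.5 dpc (-0.077). *Npy*, a neuropeptide gene outside the 39 that sympathetic neurons and endocrine cells make, rose, at 1.90 (adjusted p = 0.00211).

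Across a list of 39 other peripheral neuron genes, 36 were tested. Of these, 12 (33.3%) were lower and 3 (8.33%) higher, against 10.7% and 11.6% of all genes tested. The median log2 fold change of the list was -0.35, against -0.01 over all genes. *Ntf3*, described above, was among the genes that fell. The genes that rose were *Npy*, *Scg2*, a granin of secretory vesicles (1.41, adjusted p = 0.00123), and *Ddc*. Synaptic genes shared with endocrine cells did not pass the test, such as *Snap25* (-0.046, adjusted p = 0.854) and *Syp* (0.036, adjusted p = 0.9).

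Ratios of counts within a library need no scaling factor, and are given as a description of members chosen after their values were seen. A trend with exon length, described below, does not cancel in them, since the paired genes differ in length. The ratio of *S100b* to *Sox10* was 0.122, 0.215 and 0.195 at 13.5 dpc and 0.942, 0.588 and 0.776 at 15.5 dpc, and all 15.5 dpc samples were above all of 13.5 dpc. *Gfra1* relative to *Gdnf* was 1.92, 1.89 and 2.13 at 13.5 dpc and 6.23, 4.08 and 5.05 at 15.5 dpc, also without overlap. The ratio of *Nefm* to *Prph*, which both encode intermediate filament proteins of neurons, was 6.07, 5.52 and 6.17 at 13.5 dpc and 1.57, 2.05 and 2.11 at 15.5 dpc, lower in every 15.5 dpc sample. In contrast *Phox2a* relative to *Sox10* was 0.3, 0.337 and 0.261 at 13.5 dpc and 0.277, 0.165 and 0.284 at 15.5 dpc, and these ranges overlapped.

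The spread between 15.5 dpc samples ran with exon length. Between replicates 1 and 2 of 15.5 dpc, the log2 ratio of normalised counts fell with the exon length of the gene across the 34 tested members (Spearman rho = -0.86) and across all 15578 genes tested (rho = -0.59). These are genes of the same libraries and not independent points. Long genes such as *Dcx* and *Ntrk3* were lower in replicate 1, at log2 ratios of -1.02 and -1.38, and short genes such as *Nrtn* and *Gal* higher, at 1.06 and 1.32. With a trend with exon length removed from each library, all 17 called members kept their call and direction, and *Gdnf*, *Fabp7*, *Tubb3* and *Stmn2* were called lower as well, in a fit that called 5104 of all genes against 3467. The cause of this spread was not tested.

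**Figure D4:**
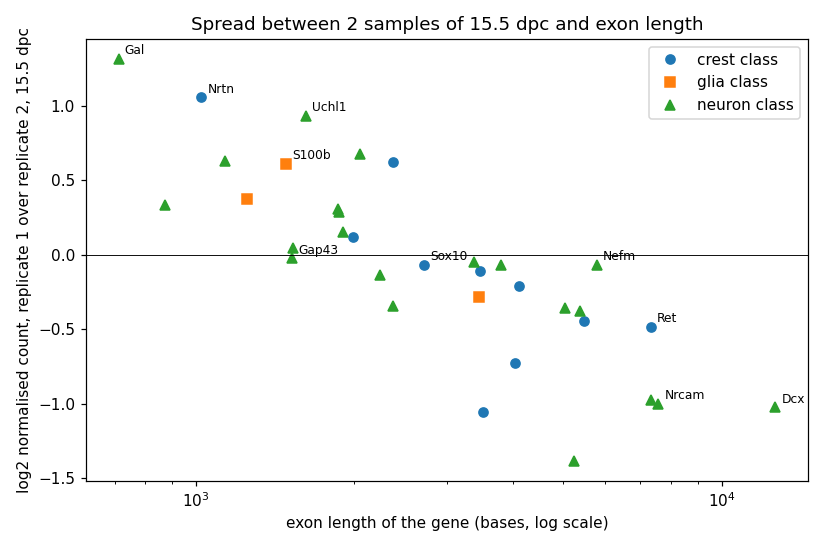
Log2 ratio of normalised counts between replicates 1 and 2 of 15.5 dpc against exon length (log scale) for the 34 tested members, by class. Points fall from about 1 for the shortest genes to about -1 for the longest.

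Markers of other cell types moved between the stages as well. Over all genes tested, 10.7% were lower and 11.6% higher. Of 12 mesenchyme genes 6 were lower, among them *Pdgfra* (-1.33, adjusted p = 0.00605) and *Nkx3-2* (-1.70, adjusted p = 0.00161), and 1 was higher. Their summed normalised counts were 121217 to 136795 at 13.5 dpc and 87516 to 130821 at 15.5 dpc. Of 16 endocrine genes 7 were higher and 3 lower, with sums of 33287 to 35984 and 36017 to 57858. Of 8 epithelial genes 4 were higher and 1 lower, with sums of 27011 to 28485 and 34471 to 43313. Of 5 endothelial genes 0 passed the test, at an unadjusted p of 0.05 in edgeR and by DESeq2 too, and 2 of 5 immune genes were lower and 2 of 4 erythroid genes higher. None of these markers was at 0 in all samples. For comparison, the sums of the members were 6942 to 7353 and 3973 to 4131 for the neuron class, 2896 to 3113 and 3294 to 3980 for the crest class and 346 to 396 and 416 to 480.2 for the glia class. At 13.5 dpc *Hand2*, *Gap43* and *Nefm* were the largest terms of the neuron sums. Within the crest sums the mean of *Ret* went from 725 to 1529, and within the glia sums that of *S100b* from 44.6 to 142, and these rises were larger than those of the mean sums. The part of these other cell types in the changes of the members was not tested.

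**Figure D5:**
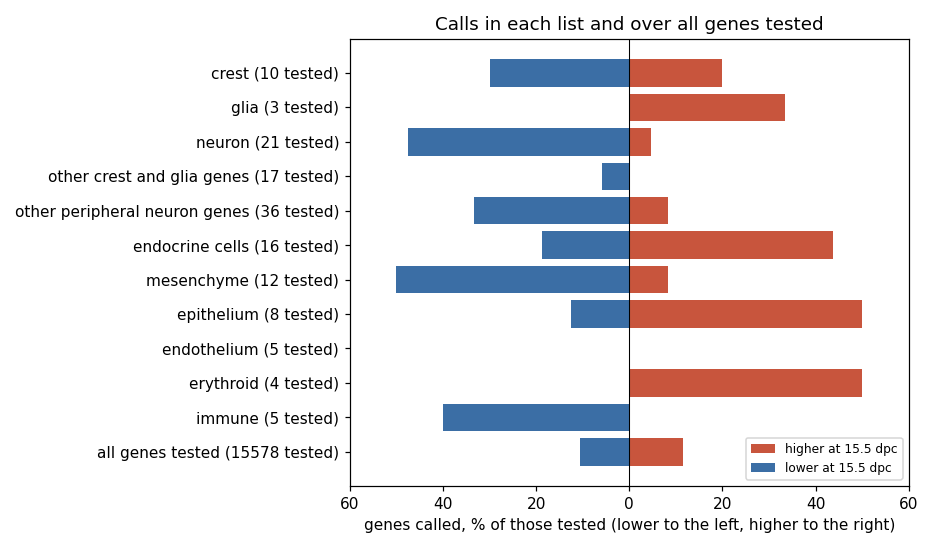
Genes called lower (to the left) and higher (to the right) at 15.5 dpc, as a percentage of the genes tested in each list, with all 15578 genes in the bottom bar (10.7% lower, 11.6% higher). The neuron class and the other peripheral neuron genes lie mostly to the left, as does mesenchyme, and the endocrine and epithelial lists mostly to the right.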

How the data were processed

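RNA of whole wt pancreata was measured at 13.5 and 15.5 dpc (n = 3 samples each). The authors enriched poly(A) RNA, aligned single-end reads to mm10 with GSNAP and used featureCounts 1.4.6 (version from the submitters' processing notes) to assign unique alignments to Ensembl genes. They deposited raw read counts with exon lengths. Whether counting used the strand is not given in the sources used here. Symbols were matched by identifier for 35449 of 37224 genes. No column of per-sample values was left unused.

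Counts were filtered with filterByExpr, scaled with TMM factors (0.847 to 1.08) and tested with the quasi-likelihood test of edgeR 4.0.16 in R 4.3.3, without covariates, with Benjamini-Hochberg adjustment over all genes tested. A standard error is the size of the log2 fold change over the square root of its F value. RPKM uses the effective library size. Log2 ratios between libraries add 0.5 to each normalised count. The test was tried on simulated data. Alternatives included DESeq2 1.42.0, 3 other scalings, 2 other filters, a block for the replicate number, each sample left out, genes above 1% of counts left out, a lowess trend with exon length (span 0.5) removed, and the study's cut-offs, here over all biotypes. Motifs and upstream windows come from RefSeq sequences of GRCm38.p6.

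All 39 members were described. Genes of the other lists were named if called, among the largest changes or defining markers, and others (*Ednra*, *Ece1*, *Edn1*, *Artn*, *Gfra4*, *Pspn*, *Pax3*, *Gfap*, *Nefh*, *Ina*, *Pnmt*, *Slc6a2*, *Snap25* and *Syp*) were named for their role, with their values known. Some genes of these lists are not reported here. The members and lists were chosen with earlier results of these data known. The p-values measure the spread between pools of embryos.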

Additional observations from a re-analysis of the deposited data

How the results depend on the processing

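Among the 34 tested members, 443 of 508 comparisons with an alternative kept direction and side of the threshold, 41 lost the call, 15 gained one and 9 had another sign. The signs that changed were those of uncalled genes. *Foxd3* was -0.16 with library size only and -0.029 with the length trend removed. With a sample dropped *Foxd3* was -0.090 to 0.24, *Gfra3* -0.11 to 0.035, *Ngfr* -0.087 to 0.11, *Ntrk3* -0.022 to 1.17 and *Gal* -0.077 to 0.72.

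The number of genes called over all genes was 3467. With a sample dropped it was 1235 to 7620. It was 1235, 1331 and 1402 with replicate 1, 2 or 3 of 13.5 dpc dropped, 7620 with replicate 2 and 1438 with replicate 3 of 15.5 dpc dropped, and 1539 by the study's cut-offs. With a sample dropped, 1 to 4 crest genes were lower and 1 to 3 higher, 6 to 11 neuron genes were lower and 0 to 1 higher, and the medians were -0.21 to -0.15 for crest, -0.14 to 0.11 for glia, changing sign without 13.5 dpc replicate 3, and -0.59 to -0.41 for neuron genes. By the study's cut-offs 1 crest gene was lower and 1 higher, and 6 neuron genes were lower and 0 higher. With library size only, which moved the median of all genes from -0.01 to -0.22, 4085 of all genes were called, 4 crest and 12 neuron genes were lower, 1 crest and 0 neuron genes were higher, and the class medians were -0.39, -0.23 and -0.55 for crest, glia and neuron. The crest median was -0.31 with DESeq2 and -0.34 with no filter, where *Tfap2b* enters. The neuron median was -0.67 with at least 10 counts in every sample, which leaves out low genes, and -0.48 with the length trend removed, where 1 glia gene was lower. The numbers of genes tested differ among these fits, and the cause of other changes was not tested.

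Replicate numbers were not taken to pair samples, because the correlations of same-numbered deviations were 0.22, -0.22 and 0.038. In the fit with the block, *Sox10* (adjusted p = 0.0953), *Phox2a* (0.0666), *Elavl3* (0.0582) and *Slc18a2* (0.0614) were above the threshold, 7 neuron genes were lower, *Gdnf* passed it (0.0384) and 2676 of all genes were called. Low counts kept *Tfap2b*, *Cdh19*, *Dbh* and *Chat* below the filter of the reported fit.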
